A study of Mus musculus with 12 samples.

Results

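The MHC class II probe sets described here are those that the platform annotation assigns to H2-Aa, H2-Ab1, H2-Eb1, H2-DMa, H2-DMb1, Cd74 or Ciita, with probe sets that list several genes included. The 7 genes were 7 of 13319 genes named in the annotation, and their 12 probe sets were 12 of the 22626 tested. H2-Ab1 had 3 of them, H2-Aa, H2-DMb1 and Ciita had 2 each, and H2-Eb1, H2-DMa and Cd74 had 1 each. Both H2-DMb1 probe sets also list H2-DMb2, so these genes cannot be told apart there. By the ending of their names, 2 probe sets (x_at) hold probes similar to other sequences, 3 (s_at) are shared by several transcripts or genes, 3 (a_at) by transcripts of a single gene, and 4 (at) carry no such mark.

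The study read RNA from the whole brain of adult mice, untreated and housed specific-pathogen-free, on 12 Affymetrix 3' expression arrays in 4 genotypes of 3 arrays each. The USP18ko:IFNARko mice lack both Usp18 and Ifnar1, and are called the double knockout here. The USP18ko mice lack Usp18 and the IFNARko mice lack Ifnar1, and WT mice carry neither deletion. The labels give no strain, sex or exact age, and do not say how or in which cells the alleles were deleted. They also do not state from how many animals the 3 arrays of a genotype came. A p-value thus speaks of the spread among these arrays alone, which may be at least partly technical. Usp18 is an isopeptidase that removes the ubiquitin-like protein ISG15 and restrains signalling of the type I interferon receptor, of which Ifnar1 is a subunit.

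MHC class II molecules are pairs of an alpha and a beta chain that carry peptides from the endocytic route to the cell surface, where CD4 T cells read them. H2-Aa and H2-Ab1 encode the chains of I-A, H2-Eb1 encodes the beta chain of I-E, Cd74 is the invariant chain that fills the groove until peptide is loaded, and H2-DMa and H2-DMb1 encode the exchange factor H2-DM. Ciita is the coactivator that switches these genes on, without binding DNA itself, from promoters with an X box, read by the RFX complex, and a Y box, read by NF-Y. In the brain, class II is carried mainly by perivascular and border macrophages and by few microglia at rest, and interferon-gamma is its best-known inducer.

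The promoter windows are shown because the X and Y boxes are the letters through which Ciita acts on its targets. RefSeq windows of GRCm38.p6 were at hand for 4 of the 7 genes: H2-Aa, H2-Eb1, H2-DMb1 and H2-DMa, with 2 starts for H2-DMa. The 250 bases before the start are printed 5′ to 3′ on the strand of the gene, with capitals for GNAACT, taken as the core of the X box, followed within 40 bases by TGATTGG, the core of the Y box. The H2-Aa window is chr17:34287824-34288073 on the minus strand, the H2-Eb1 window is chr17:34305617-34305866 on the plus strand, and the H2-DMb1 window is chr17:34152941-34153190 on the plus strand.
H2-Aa: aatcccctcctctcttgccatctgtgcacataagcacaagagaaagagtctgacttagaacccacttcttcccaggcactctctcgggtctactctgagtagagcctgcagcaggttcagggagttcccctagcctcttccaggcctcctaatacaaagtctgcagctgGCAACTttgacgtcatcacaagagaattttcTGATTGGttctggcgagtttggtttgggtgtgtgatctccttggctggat
H2-Eb1: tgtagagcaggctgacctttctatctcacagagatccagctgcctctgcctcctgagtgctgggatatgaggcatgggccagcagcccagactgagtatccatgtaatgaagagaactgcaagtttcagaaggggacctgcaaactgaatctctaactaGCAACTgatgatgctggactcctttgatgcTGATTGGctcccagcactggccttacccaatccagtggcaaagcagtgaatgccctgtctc
H2-DMb1: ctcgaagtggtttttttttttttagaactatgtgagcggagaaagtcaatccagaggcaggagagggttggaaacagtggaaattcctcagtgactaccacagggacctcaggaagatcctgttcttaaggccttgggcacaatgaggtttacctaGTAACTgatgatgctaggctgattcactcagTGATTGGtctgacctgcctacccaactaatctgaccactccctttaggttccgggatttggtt
The first base of the X core and the first base of the Y core lie 31 bases apart in H2-Aa, 30 in H2-Eb1 and 31 in H2-DMb1. On either strand, 82 of 32851 windows of this length, or 0.25%, hold the 2 motifs in this order and spacing, and H2-Eb2 is another of them. Neither H2-DMa window holds the pair, nor do the windows of H2-DMb2, H2-Oa and H2-Ob. Taken singly, TGATTGG is in 7.23% and GNAACT in 37.3% of all windows. No member window holds TTCNNNGAA, the core of the GAS element of interferon-gamma signalling, which is in 7.02% of windows, or the ISRE, the element of type I interferon signalling, which is in 2.98%. The letters searched were set down after these windows had been read, and a match is a description of the sequence only.

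The knocked-out genes were read as a check of the labels. Ifnar1 had log2 signals of 6.56 to 6.68 in double knockout and 6.24 to 6.59 in IFNARko arrays, against 7.76 to 8.01 in USP18ko and 7.44 to 8.21 in WT arrays. Usp18 lay at 3.50 to 3.71 in double knockout, 3.55 to 3.76 in USP18ko and 3.53 to 3.67 in IFNARko arrays, below its 4.04 to 4.36 in WT arrays, so its low level does not set the IFNARko arrays apart from the other knockouts. Neuron markers marked the tissue as brain, with summed signals of 19451 to 22771 over 6 genes in the 12 arrays. The arrays differed in sex-linked transcripts: Xist was at 10.17 to 11.34 in the 3 double knockout arrays and WT replicate 1 and at 4.98 to 5.69 in the other 8, whereas the Y-linked Eif2s3y was at 3.05 to 3.22 in double knockout replicates 1 and 3 and WT replicate 1 and at 7.16 to 8.94 in the others. Double knockout replicate 2 thus had both, with Xist at 10.34 and Eif2s3y at 7.16. WT replicate 1 differed from WT replicates 2 and 3 in both transcripts, so the WT arrays did not all come from the same animal. The double knockout against USP18ko sets 3 arrays with high Xist against 3 with low Xist, so genotype and Xist signal cannot be told apart there. The same holds for the double knockout against IFNARko, whose arrays had Xist at 4.98 to 5.65. The interaction of both genotypes also draws on these arrays. IFNARko replicate 1 had a 3' minus 5' difference of 1.48 in the actin control probe sets, against 0.20 to 0.54 in the other 11 arrays.

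USP18ko brains had more RNA of the classical class II chain H2-Aa than WT brains, and H2-Aa was lower in double knockout than in USP18ko brains. Both H2-Aa probe sets passed the test in each of these comparisons, by 1.73 and 0.71 against WT on the log2 scale. Their WT means were low, at 4.87 and 4.37, and without detection calls it is unknown whether these were above background. H2-Ab1, H2-Eb1 and Cd74 also had higher values in USP18ko arrays, with no overlap with WT, but did not pass. H2-DMa and Ciita overlapped between USP18ko and WT. In whole tissue, a change in the number of class II-bearing cells and a change in RNA per cell cannot be told apart.

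H2-Aa, the I-A alpha chain, was read by an x_at and an s_at probe set. The x_at probe set had log2 signals of 4.80, 4.59 and 4.55 in double knockout arrays, 6.52, 6.0 and 7.29 in USP18ko arrays, 5.71, 4.34 and 4.71 in IFNARko arrays and 4.81, 5.01 and 4.78 in WT arrays. All 3 USP18ko arrays lay above the other 9, and the highest of those 9 was IFNARko replicate 1. USP18ko exceeded WT by 1.73 ± 0.34 (SE; 95% interval 1.00 to 2.47; limma, Benjamini-Hochberg adjusted p = 0.0294), and the double knockout minus USP18ko was -1.95 (interval -2.69 to -1.22; adjusted p = 0.0103). The s_at probe set had 4.45, 4.59 and 4.37 in double knockout arrays, 5.03, 5.02 and 5.20 in USP18ko arrays, 4.50, 4.37 and 4.27 in IFNARko arrays and 4.40, 4.31 and 4.41 in WT arrays. Here too the USP18ko arrays stood above all others, with a smaller and more even step. The difference of USP18ko minus WT was 0.71 ± 0.10 (SE; interval 0.49 to 0.93; limma adjusted p = 0.00277), and that of the double knockout minus USP18ko was -0.61 (interval -0.84 to -0.39; adjusted p = 0.00811).

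The 2 H2-Aa probe sets did not stand equally firm. The s_at difference from WT stayed past the threshold without any single array, at 0.65 to 0.75 with limma adjusted p of 7.88e-04 to 0.0212. The x_at difference from WT ran from 1.39 to 2.03, and its limma adjusted p rose to as much as 0.147: it failed without any of WT replicates 1, 2 and 3, without USP18ko replicates 1 or 3 and without any of the 3 double knockout arrays, which enter through the shared spread. With Eif2s3y as a covariate it had an adjusted p of 0.0720. For the double knockout against USP18ko, the x_at call failed without double knockout replicate 2 or 3, and the s_at call without USP18ko replicate 3 or double knockout replicate 1 or 3, with adjusted p up to 0.0632. With the Eif2s3y covariate both missed the threshold in that comparison, with an adjusted p of 0.128 for each.

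**Figure D1:**
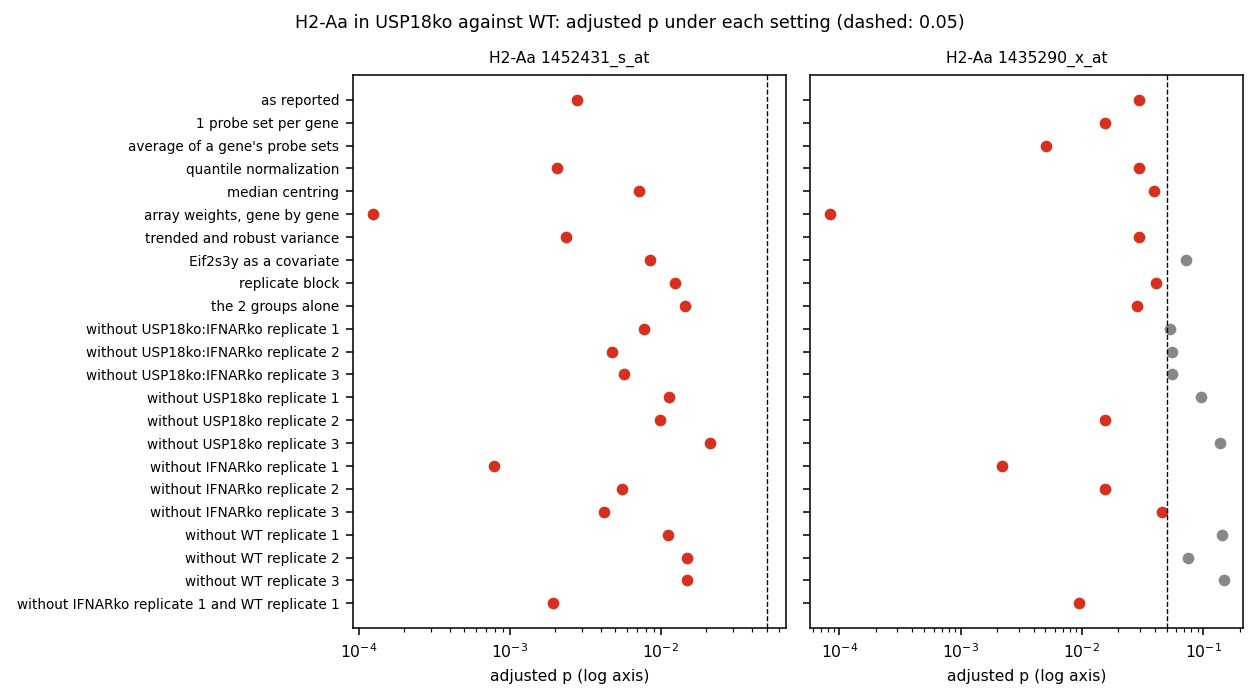
Limma adjusted p on a log axis (x axis) of USP18ko against WT for both H2-Aa probe sets under each processing setting and with arrays left out (y axis), red where it was under 0.05, the dashed line. The s_at points lie left of the line in each fit with a single array left out, between 7.88e-04 and 0.0212, while the x_at points reach 0.147 and lie right of it in 8 of these 12 fits.

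H2-Ab1, the I-A beta chain that pairs with H2-Aa, was read by 3 probe sets, none of which passed. The a_at probe set had 4.37, 4.34 and 4.60 in double knockout arrays, 5.23, 5.0 and 6.17 in USP18ko arrays, 4.20, 4.76 and 4.26 in IFNARko arrays and 4.48, 4.54 and 4.45 in WT arrays. USP18ko arrays again lay above the other 9, replicate 3 by the widest margin. USP18ko minus WT was 0.97 (interval 0.43 to 1.52; limma adjusted p = 0.178), and the double knockout minus USP18ko was -1.03 (adjusted p = 0.108).
The s_at probe set of H2-Ab1 had 4.82, 4.62 and 4.78 in double knockout arrays, 5.36, 5.21 and 5.74 in USP18ko arrays, 5.35, 4.61 and 4.80 in IFNARko arrays and 4.46, 5.19 and 4.90 in WT arrays. IFNARko replicate 1 reached into the USP18ko range, and WT replicate 2 lay just below it. USP18ko minus WT was 0.58 (limma adjusted p = 0.840). The x_at probe set of H2-Ab1 differed least, at 4.19 to 4.25 in double knockout, 4.45 to 4.67 in USP18ko, 4.01 to 4.17 in IFNARko and 4.29 to 4.40 in WT arrays, which put the 2 genotypes without Ifnar1 below WT and USP18ko above it.

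H2-Eb1, the I-E beta chain, had 5.96, 5.59 and 6.18 in double knockout arrays, 6.33, 6.73 and 7.30 in USP18ko arrays, 6.13, 5.81 and 5.88 in IFNARko arrays and 5.93, 5.97 and 5.96 in WT arrays. The WT arrays were almost level and all USP18ko arrays lay above the rest. USP18ko minus WT was 0.83 (limma adjusted p = 0.178) and the double knockout minus USP18ko was -0.87 (adjusted p = 0.112). Without USP18ko replicate 1, both differences passed, at 1.06 (adjusted p = 0.0303) and -1.10 (adjusted p = 0.0206).

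Cd74, the invariant chain, had 6.49, 6.39 and 6.57 in double knockout arrays, 7.18, 6.84 and 8.02 in USP18ko arrays, 6.64, 6.22 and 6.27 in IFNARko arrays and 6.35, 6.77 and 6.64 in WT arrays. The 3 USP18ko arrays were the highest, but replicate 2 exceeded WT replicate 2 only slightly while replicate 3 stood well clear. The difference of USP18ko minus WT was 0.76 (interval 0.23 to 1.30; limma adjusted p = 0.531), and of the double knockout minus USP18ko -0.87 (adjusted p = 0.241). Its array-to-array pattern was close to that of the x_at probe set of H2-Aa: Pearson's r was 0.92 over the 12 arrays and 0.84 after the genotype means were taken away, as a description of arrays that share their libraries.

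The exchange factor moved little. H2-DMa, the alpha chain of H2-DM, had 7.34, 7.33 and 7.34 in double knockout arrays, 7.38, 7.56 and 7.68 in USP18ko arrays, 7.35, 7.23 and 7.23 in IFNARko arrays and 7.27, 7.63 and 7.37 in WT arrays. WT replicate 2 lay within the USP18ko range, and USP18ko minus WT was 0.12 (interval -0.13 to 0.37; limma adjusted p = 1.00). Of the 2 probe sets of H2-DMb1 and H2-DMb2, the s_at one had 5.58, 5.63 and 5.72 in double knockout, 5.92, 5.86 and 5.93 in USP18ko, 5.38, 5.51 and 5.45 in IFNARko and 5.77, 5.75 and 5.72 in WT arrays. The 4 genotypes did not overlap for this probe set, in the order USP18ko, WT, double knockout and IFNARko from high to low, although the highest double knockout and lowest WT array were both at 5.72. None of its differences passed: USP18ko minus WT was 0.16, and IFNARko minus WT was -0.30 (limma adjusted p = 0.359). The other lay between 3.87 and 4.29 in all 12 arrays, with a difference of 0.19 for USP18ko minus WT.

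**Figure D2:**
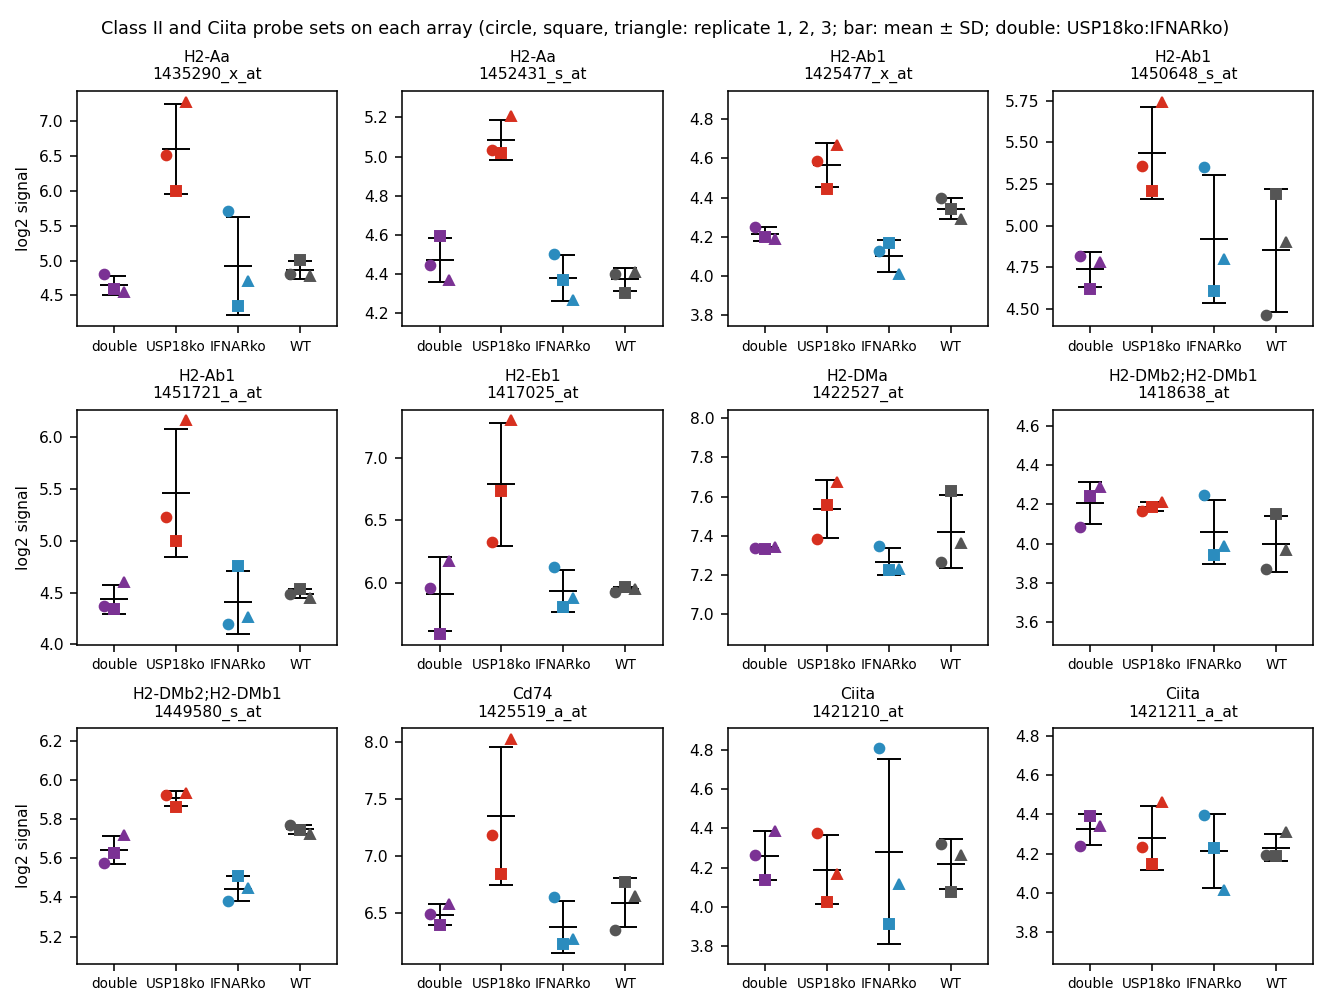
Log2 signal (y axis, with its own range in each panel) of each of the 12 class II probe sets in every array by genotype, with double for USP18ko:IFNARko, marker shapes for replicates 1, 2 and 3 and bars for the mean ± SD. The USP18ko arrays stand above the rest for both H2-Aa probe sets, H2-Eb1 and Cd74, with replicate 3 highest, and the 2 Ciita panels show overlapping genotypes.

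Ciita did not follow its targets across genotypes. Its a_at probe set had 4.24, 4.39 and 4.34 in double knockout arrays, 4.23, 4.15 and 4.46 in USP18ko arrays, 4.40, 4.23 and 4.02 in IFNARko arrays and 4.19, 4.19 and 4.31 in WT arrays. Its other probe set had 4.26, 4.14 and 4.39 in double knockout arrays, 4.38, 4.03 and 4.17 in USP18ko arrays, 4.81, 3.91 and 4.12 in IFNARko arrays and 4.32, 4.08 and 4.26 in WT arrays. The USP18ko and WT ranges overlapped in both probe sets, and the widest spread was within IFNARko. USP18ko minus WT was 0.05 for a_at (interval -0.21 to 0.31) and -0.03 for the other (interval -0.46 to 0.40), with limma adjusted p of 1.00 for both. These intervals leave out a difference as large as that of either H2-Aa probe set, on the scale of the Ciita signal. The files give no detection calls, and signals near 4 are low in arrays whose medians were 6.98 to 7.07, so it is unknown whether the Ciita probe sets were above background.

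The difference between each class II signal and Ciita (a_at) in the same array was then compared between genotypes, 50 differences in all. For USP18ko against WT it was greater by 1.68 and 0.66 for the H2-Aa probe sets, 0.92, 0.53 and 0.17 for the a_at, s_at and x_at probe sets of H2-Ab1, 0.78 for H2-Eb1 and 0.71 for Cd74, against 0.07 for H2-DMa and 0.14 and 0.11 for those of H2-DMb1. The groups did not overlap for 6 of these 10, a count with no share over all probe sets to set beside it. As Ciita a_at itself differed by only 0.05 between USP18ko and WT, these values largely restate the class II differences given above. An exact two-sided permutation test of 3 against 3 arrays cannot give a p under 0.1, which those 6 reached, and after Benjamini-Hochberg adjustment over the 50 differences that p was 0.31. Within genotypes some class II signals varied with Ciita: with the genotype means taken away, r with Ciita a_at over 12 arrays ran from 0.04 for the s_at probe set of H2-DMb1 to 0.83 for H2-Aa s_at, with 0.67 for H2-Aa x_at and 0.71 for Cd74, and among the USP18ko arrays it too was highest in replicate 3 and lowest in replicate 2. With the other Ciita probe set r ran from -0.31 for the s_at probe set of H2-DMb1 to 0.67 for H2-Aa x_at. It was 0.33 for H2-Aa s_at and 0.30 for Cd74. Among the USP18ko arrays this other Ciita probe set was highest in replicate 1, at 4.38, and lowest in replicate 2, at 4.03. How common such r values are over all genes was not tested. Dsc1 and Agr2 had r of 0.90 and 0.91 with Ciita a_at within genotypes, at low mean signals of 3.39 and 3.34. They were picked for their likeness to it in these same arrays, so their r does not answer that question.

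Counted together, 2 of the 12 class II probe sets rose in USP18ko against WT, where limma called 0.968% of all 22626 probe sets higher and 0.977% in either direction. At an unadjusted p under 0.05 there were 7 of 12, against 4.01% of all. The USP18ko arrays lay wholly above the WT arrays for 9 of 12, against 4.10% of all probe sets. The median difference was 0.40 over the 12 and 0.65 over the 10 without Ciita, against -0.02 over all probe sets. USP18ko replicate 3 was the highest of the 3 USP18ko arrays for 11 of 12 class II probe sets, as it was for 41.5% of all, and replicate 2 was the lowest for 9.

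H2-Aa was also the gene called in the double knockout set against USP18ko, a comparison that uses the same USP18ko arrays. Of the 12, 2 fell, both of H2-Aa, where limma called 1.16% of all probe sets lower and 1.19% in either direction. The double knockout arrays lay wholly below the USP18ko arrays for 9 of 12, against 7.12% of all probe sets, and the median difference was -0.48, against 0.01 over all. In this comparison 8 of 12 had an unadjusted p under 0.05, against 4.53% of all.

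IFNARko and the double knockout, each set against WT, gave no calls among the class II probe sets. For the double knockout against WT limma called 0 of 12, and 0.00% of all probe sets. At an unadjusted p under 0.05 it was 0 of 12, against 4.20% of all. Its median was -0.07 over the 12, against -0.01 over all, and 2 lay wholly below WT, where 9.68% of all probe sets did so. For IFNARko against WT limma called 0 of 12, and 0.0177% of all probe sets. At an unadjusted p under 0.05 there were 2 of 12, against 9.17% of all, and the same number lay wholly below WT, against 5.90%. The median was -0.02, against -0.01 over all. For the double knockout against IFNARko limma called 0 of 12, and 0.00% of all, and 1 of 12 had an unadjusted p under 0.05, against 8.35%. The H2-Aa x_at difference was -0.22 for the double knockout against WT and 0.05 for IFNARko against WT, the second being -0.34 without IFNARko replicate 1.

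Whether the effect of losing Usp18 depended on Ifnar1 was tested as an interaction, the difference of double knockout minus USP18ko less that of IFNARko minus WT. None of the 12 class II probe sets passed, where limma called 0.703% of all probe sets, and 5 had an unadjusted p under 0.05, against 4.11% of all. For H2-Aa it was -2.01 ± 0.48 (SE; interval -3.05 to -0.97; limma adjusted p = 0.144) for x_at and -0.62 ± 0.14 (SE; interval -0.94 to -0.31; adjusted p = 0.127) for s_at. The H2-Ab1 a_at, H2-Eb1, H2-Ab1 s_at and Cd74 probe sets had values of -0.94, -0.86, -0.77 and -0.65, with wider errors than H2-Aa s_at. Without IFNARko replicate 2 the x_at interaction of H2-Aa passed, at -2.30 (limma adjusted p = 0.0481). Thus the H2-Aa calls in USP18ko against WT and their absence in double knockout against IFNARko were not shown to differ at the threshold used.

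**Figure D3:**
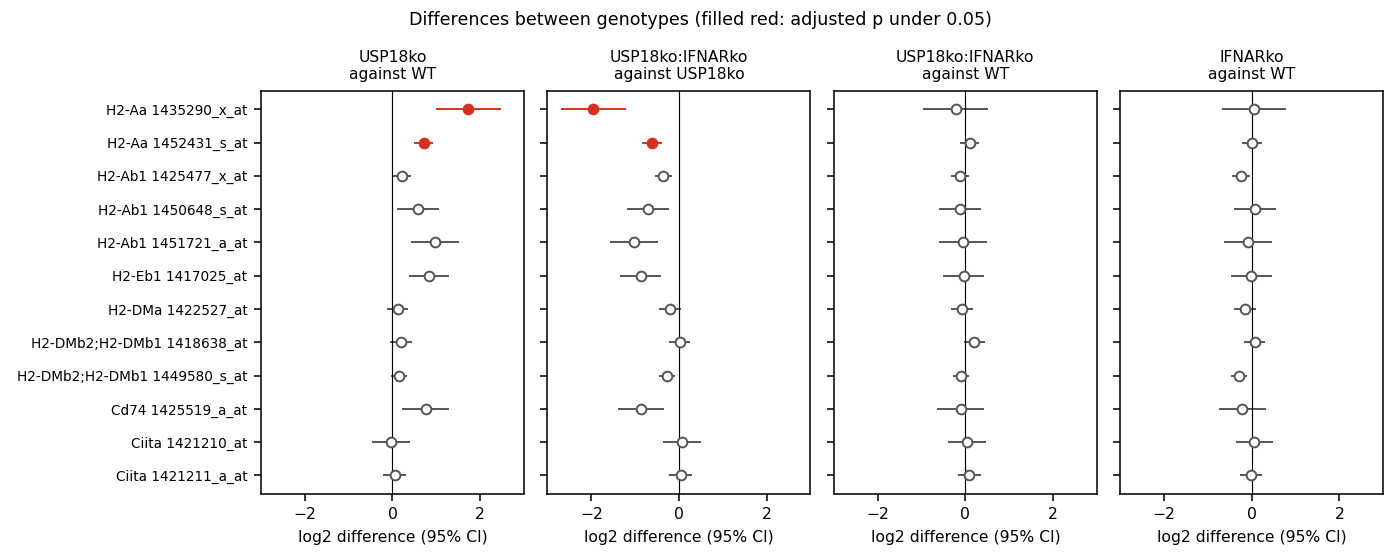
Log2 difference (x axis) with its 95% interval for each class II probe set (y axis), 1 panel for each of 4 comparisons, filled red where the limma adjusted p was under 0.05. The 2 H2-Aa probe sets are the ones called, for USP18ko against WT and for the double knockout against USP18ko, and the intervals of both Ciita probe sets span 0.

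The other class II genes gave no call, at signals that were low for some of them. Of 3 measured genes of this list 0 were called by limma in any of the 6 comparisons, and 0 had an unadjusted p under 0.05. Limma called 0.00% to 1.19% of all probe sets in these comparisons, so 0 of 3 says little. H2-Oa, which with H2-Ob forms the H2-O inhibitor of H2-DM, differed by -0.08 between USP18ko and WT, H2-DMb2, a second beta chain of H2-DM, by -0.06, and H2-Ea by -0.06 (limma adjusted p = 1.00 for each). RefSeq lists H2-Ea as a transcribed pseudogene in this assembly. Its s_at probe set differed by -0.14 between USP18ko and WT, with the USP18ko arrays wholly below WT. Another H2-Ea probe set, with a mean of 2.71 over the arrays, differed by 0.02. Neither passed. H2-Ob shares its probe set with Gm20506. That probe set had means of 4.12 in double knockout, 4.10 in USP18ko, 4.0 in IFNARko and 4.03 in WT arrays. H2-Oa lay at 3.55 to 4.03 over all arrays. With such low signals and no detection calls, the small differences of H2-Oa and H2-Ob do not show an unchanged level.

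Of the regulators of Ciita and of its promoter complex, 0 of 9 measured genes passed limma's test in USP18ko against WT (1 at an unadjusted p under 0.05), and 1, Irf1, fell in the double knockout against USP18ko. Over all probe sets 0.977% passed in USP18ko against WT, and 4.01% had an unadjusted p under 0.05. In the double knockout against USP18ko 1.16% of all fell. Irf1 is the interferon-induced factor that helps to switch on Ciita. It had 6.45, 6.54 and 6.54 in double knockout arrays, 7.42, 7.11 and 7.58 in USP18ko arrays, 7.06, 6.40 and 6.50 in IFNARko arrays and 6.65, 6.78 and 6.75 in WT arrays. The USP18ko arrays were the highest, and USP18ko minus WT was 0.64 (limma adjusted p = 0.180), whereas the double knockout minus USP18ko was -0.86 (adjusted p = 0.0230). The RFX subunits Rfx5, Rfxap and Rfxank differed by -0.14, 0.09 and 0.08 between USP18ko and WT, the NF-Y subunits Nfya, Nfyb and Nfyc by 0.03, -0.09 and -0.04, Creb1, which binds the X2 part of the X box region, by -0.22, and Irf2, a relative of Irf1, by 0.38. None of the 6 measured genes of the interferon-gamma receptor pathway passed in USP18ko against WT (1 at an unadjusted p under 0.05). Interferon-gamma itself, Ifng, lay at 3.18 to 3.51 in all 12 arrays, low for these arrays and with no detection call, so that its difference of 0.03 between USP18ko and WT does not show an unchanged level. Its receptor chains Ifngr1 and Ifngr2 differed by 0.09 and -0.05 between USP18ko and WT, and the feedback inhibitor Socs1 by 0.40 (limma adjusted p = 0.760).

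Of 9 genes that prepare peptides for class II, 1 rose in USP18ko against WT, as 0.968% of all probe sets did. It also fell in the double knockout against USP18ko, as 1.16% of all did. This was Ctss, cathepsin S, the protease that trims the invariant chain. It had 9.08, 8.98 and 9.01 in double knockout arrays, 10.96, 11.51 and 11.07 in USP18ko arrays, 9.77, 9.04 and 9.08 in IFNARko arrays and 8.71, 9.67 and 9.43 in WT arrays. The USP18ko arrays lay above all others, with a difference of 1.91 from WT (limma adjusted p = 0.00132) and of -2.16 for the double knockout minus USP18ko (adjusted p = 4.17e-04). Ifi30, the thiol reductase GILT, had a difference of 0.68 in USP18ko against WT that did not pass (limma adjusted p = 0.354), as did the cathepsins Ctsz with 0.67 and Ctsh with 0.59. Of 5 co-stimulation genes, 1 rose, the adhesion molecule Icam1, by 1.34 (limma adjusted p = 0.00341), and Cd86, a ligand of CD28 on T cells, had a difference of 0.34 that did not pass.

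Markers of cells that can carry class II moved in part with H2-Aa. The counts below stand beside 0.968% of all probe sets that limma called higher in USP18ko against WT. In USP18ko against WT, 3 of 11 microglia markers rose: the actin-binding Aif1 by 1.93 (limma adjusted p = 0.00447), the complement gene C1qa by 1.79 (adjusted p = 0.0429) and the integrin Itgam by 0.80 (adjusted p = 0.0154). The homeostatic microglia markers P2ry12 and Tmem119 differed by -0.35 and 0.41 and did not pass. Of 9 perivascular and border macrophage markers 1 rose, Ms4a7, by 1.74 (limma adjusted p = 2.81e-05), and of 6 monocyte markers 1, Plac8, by 3.35 (adjusted p = 1.08e-04). The monocyte genes S100a8 and S100a9 differed by 1.90 and 1.63 and did not pass.

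The summed signal of the microglia markers was 1818 to 1927 in double knockout, 2810 to 4734 in USP18ko, 1847 to 2247 in IFNARko and 1430 to 2747 in WT arrays. That of the perivascular macrophage markers was 524 to 586, 801 to 1008, 643 to 916 and 484 to 675 in the same order of genotypes, and that of the monocyte markers 635 to 745, 1021 to 1133, 599 to 738 and 444 to 653. All 3 sums were thus highest in USP18ko arrays, with overlap only for the perivascular list, where IFNARko replicate 1 reached 916. A sum weighs genes by their signal and does not show that all genes of a list rose. USP18ko minus WT ran from -0.35 to 1.93 over the microglia list and from -0.16 to 1.74 (Ms4a7) over the perivascular list. It ran from 0.19 to 3.35 (Plac8) over the monocyte list. The perivascular median was 0.33 in USP18ko against WT and 0.32 in IFNARko against WT. The part of these sums in the class II differences was not tested. In USP18ko replicates 1, 2 and 3 the microglia sum was 2810, 4734 and 3420, the perivascular macrophage sum 801, 1008 and 904, and the monocyte sum 1066, 1021 and 1133. The monocyte sum was thus lowest in replicate 2 and highest in replicate 3, as most class II probe sets were, but its genes did not share this order. Plac8 (8.39, 8.09 and 9.13) and the low Ccr2 had it. S100a4, S100a8 and S100a9 were highest in replicate 2 and lowest in replicate 3, and Fn1 was highest in replicate 1. The other 2 sums were highest in replicate 2.

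No marker of dendritic cells (0 of 8), B cells (0 of 6) or T cells (0 of 6) passed in USP18ko against WT by limma, and 0 of each had an unadjusted p under 0.05. Over all probe sets 0.977% passed and 4.01% had an unadjusted p under 0.05, so 0 of so few is near that share. Some of these markers had low signals, with means over the arrays of 3.23 for Cd3g, 3.64 for Xcr1 and 4.18 for Ms4a1, against 7.75 for Zbtb46. With no detection calls, the low ones do not show an unchanged level. Summed signals of the dendritic cell list were 431 to 449 in double knockout, 452 to 472 in USP18ko, 398 to 480 in IFNARko and 461 to 483 in WT arrays. Those of the B cell list were 137 to 148, 136 to 167, 128 to 181 and 144 to 155 in the same order, and those of the T cell list 204 to 224, 221 to 250, 206 to 249 and 223 to 249. The USP18ko and WT ranges overlapped for all 3 lists. The astrocyte (0 of 7), endothelial (0 of 6) and neuron (0 of 6) markers passed in neither direction, with 1, 0 and 0 at an unadjusted p under 0.05.

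**Figure D4:**
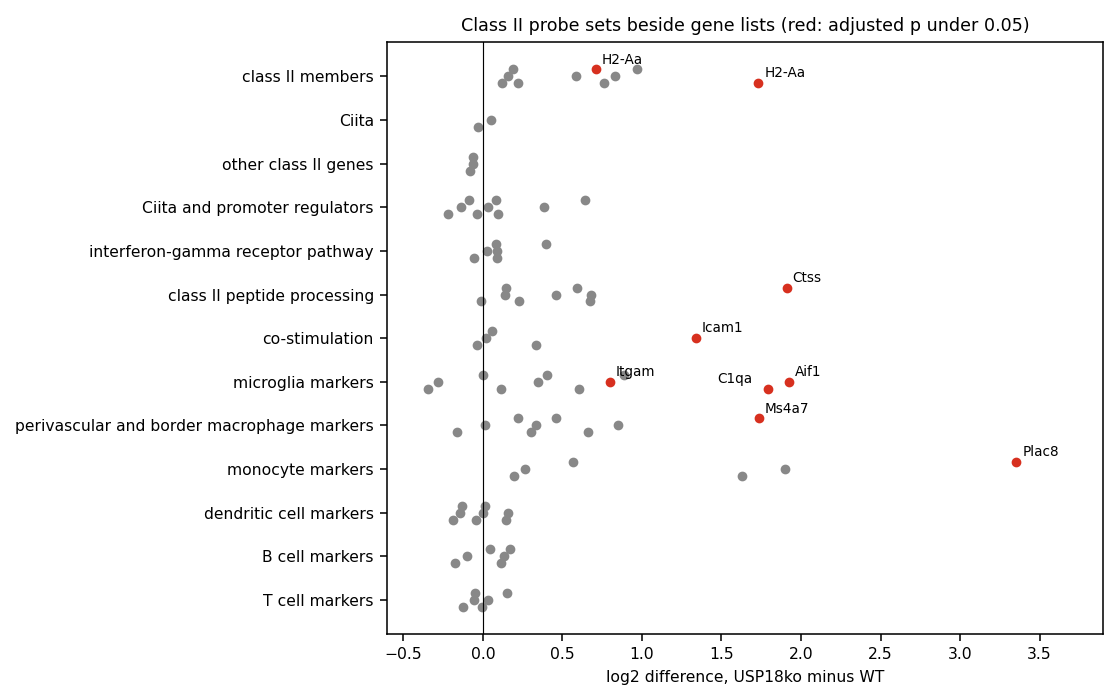
Log2 difference of USP18ko minus WT (x axis) for the class II probe sets and for each gene of the other lists (y axis, 1 point per gene), red where the limma adjusted p was under 0.05. The H2-Aa points at 0.71 and 1.73 stand beside Ctss at 1.91, Icam1 at 1.34, Aif1 at 1.93, Ms4a7 at 1.74 and Plac8 at 3.35, while Ciita and the other class II genes lie near 0.

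H2-DMa, H2-DMb1, H2-Ab1, H2-Aa and H2-Eb1 lie together on chromosome 17, with genes that serve MHC class I among them. By the order of RefSeq genes in GRCm38.p6, Psmb9, Tap1, Psmb8 and Tap2 lie between H2-DMb1 and H2-Ob, and H2-Ab1, H2-Aa and H2-Eb1 follow H2-Ob. These 4 genes serve MHC class I, as proteasome subunits and as the peptide transporter, and were named after their values were seen. They rose in USP18ko against WT by 2.81 for Psmb9, 1.52 for Tap1, 2.85 for Psmb8 and 1.08 for Tap2 (limma adjusted p of 3.22e-06, 0.00113, 2.49e-06 and 1.61e-04). H2-DMa and H2-DMb2, on the far side of these 4, differed by 0.12 and -0.06 and did not pass.

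The genes whose pattern over the 12 arrays was most like that of H2-Aa s_at, the class II probe set with the clearest difference, were Trim25 (Pearson's r 0.97), Gbp6 (0.96), Xdh (0.96), Oasl1 (0.96) and Tap1 (0.96). These 5 rose in USP18ko against WT by 0.73 to 3.50. With the genotype means taken away, r was 0.64, 0.73, 0.43, 0.43 and 0.73 in the same order, so much of the likeness is the shared step in the USP18ko arrays. The genes most like Ciita a_at were Dsc1 (0.90), Agr2 (0.90), Tnfsf4 (0.89), Slc25a13 (0.89) and Ppp1r14d (0.85). None of these 5 passed in USP18ko against WT, where they differed by 0.01 to 0.17. With the genotype means taken away, their r with Ciita a_at was 0.90, 0.91, 0.91, 0.96 and 0.89 in the same order. Their mean signals were 3.39, 3.34, 3.54, 5.91 and 3.25, low for all but Slc25a13.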

How the data were processed

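RNA of 12 whole-brain samples, 3 per genotype by the titles, was measured on Affymetrix 3' arrays. The authors deposited a log2 signal for each probe set, made with the R package affy, per the submitters' processing notes; its version, background correction and normalization were not given in the sources used here. Base 2 was taken from the range of the values (2.36 to 13.81), and the number of arrays limits the precision.

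The 64 control probe sets were left out. Per the platform annotation, which can be old, 20380 of the 22626 others had 1 gene and 691 several, while 1555 stay unnamed here because it does not list them. Probe sets were tested with limma 3.58.1 (R 4.3.3) by fitting the 12 arrays together with a term for genotype alone (8 residual and 3.79 prior degrees of freedom), with Benjamini-Hochberg adjustment over every probe set of a comparison. A call is an adjusted p under 0.05, two-sided. The fit was first tested on simulated data. Lists hold 1 probe set per gene, the one with the highest mean, and summed signals are of linear values; 12 of 109 list genes had no value.

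Named are all class II probe sets, Usp18 and Ifnar1, called list genes (up to 4 per list with the smallest p), genes of the 2 lists of other class II genes and of regulators, the 5 genes most correlated with H2-Aa and with Ciita, and array checks. Other list genes given as not passing were chosen after their values were seen. Members, lists and tests were chosen with earlier results of these data known. Over all genotypes, deviations of same-numbered samples correlated by r of -0.26 to 0.26, over 0.1 in 6 of 18 pairs. For the double knockout and USP18ko all 3 pairs passed 0.1 (0.101, 0.256 and 0.147). By this rule, from the data and not the labels, their numbers were taken as pairs, and those of the other groups were not. The reported fit has no term for the pairs, which enter only an alternative with a replicate block. Differently numbered samples were not compared, so the rule cannot show that samples were paired. No 2 arrays were identical.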

Additional observations from a re-analysis of the deposited data

Results flagged for a closer look

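The difference between double knockout and USP18ko brains was not that between IFNARko and WT brains for 5 genes of the lists read beside class II, by limma's interaction test over all probe sets. The interaction, as the difference of double knockout minus USP18ko less that of IFNARko minus WT, was -2.19 for Ctss (adjusted p = 0.0112), the protease that trims the invariant chain. It was -1.82 for the adhesion molecule Icam1 (limma adjusted p = 0.00800). Aif1, a microglia marker, had -2.17 (limma adjusted p = 0.0362). Ms4a7, a perivascular macrophage marker, had -1.97 (limma adjusted p = 3.37e-04). Plac8, a monocyte marker, had -3.71 (limma adjusted p = 0.00164). These interactions draw on double knockout arrays that all had high Xist and on USP18ko and IFNARko arrays that all had low Xist. Each of the 5 genes was the only one called in its list. The lists held 9 peptide processing, 5 co-stimulation, 11 microglia, 9 perivascular and 6 monocyte genes, and limma called 0.703% of all probe sets. Other genes went the other way, up to 0.35 in the microglia list and 0.41 in the perivascular list.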

How the results depend on the processing

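Of 1512 alternative values of class II differences, 1476 kept their direction and side of the threshold, 16 lost the call, 20 gained one and 0 called differences reversed; 97 uncalled values, none larger than 0.37 in size, changed sign. The number of class II probe sets called in USP18ko against WT (2 of 12) was 1 with 1 probe set per gene, 1 with a gene's probe sets averaged, 5 with gene-by-gene array weights, 1 with Eif2s3y as a covariate, and 1 to 2 with each array left out. In the double knockout against USP18ko (2 of 12) it was 1 with 1 probe set per gene, 8 with array weights, 0 with Eif2s3y and 0 to 3 with each array left out. For the interaction (0) it was 2 with array weights and 0 to 1 with each array left out, and for IFNARko against WT (0) 2 with array weights. Above the 40th percentile of mean signal it was 0 in both of the first comparisons, but only 2 class II probe sets were then tested, without H2-Aa. With the replicate block 2 and 2 were called. In the double knockout against USP18ko, the comparison whose numbers were taken as pairs, both were of H2-Aa (x_at limma adjusted p = 0.0160, s_at 0.0280). The block thus changed no call there. Calls over all probe sets in USP18ko against WT (221), double knockout against USP18ko (270) and the interaction (159) were 523, 598 and 357 with array weights, 63, 75 and 47 above the 40th percentile, 143, 187 and 105 with 1 probe set per gene, 197, 173 and 71 with Eif2s3y, and 205, 255 and 135 with the replicate block; the double knockout against USP18ko had 441 with these groups alone and 464 without IFNARko replicate 1 and WT replicate 1, a setting added after seeing the data. With array weights there were 2884 in IFNARko against WT (4), 2306 in the double knockout against WT (0) and 241 when it was set against IFNARko (0); without IFNARko replicate 1 and WT replicate 1 there were 23, 41 and 3. The default array weights did not converge. Of 400 differences from Ciita 394 moved by less than 1 SD, and all 6 that moved more did so with the other Ciita probe set, also added after seeing the data. No scanner files were used here, so signal over background is unknown, also for low probe sets such as H2-Aa s_at, Ciita and Ifng.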
